A study of Xenopus laevis with 4 samples.

Results

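The genes described are those of the ubiquitin-proteasome pathway on a *Xenopus laevis* microarray that compared dorsal with ventral pancreatic buds. Members were chosen by name alone: every probe set that is not a control, has exactly 1 gene symbol, and whose symbol begins like a proteasome subunit (psma to psmg), a ubiquitin-activating or ubiquitin-conjugating enzyme (uba, ube2), a cullin, an F-box protein, or a deubiquitinase of the USP, UCH or OTU families. The rule found 125 of 7531 genes with a symbol, through 141 of 15491 probe sets. Of these, 60 probe sets stood for proteasome genes and 81 for the other groups, called ubiquitin enzymes here. That label also takes in cullins and F-box proteins, which are parts of ligases, and members that act on SUMO or NEDD8. Their identifiers all matched a RefSeq gene of the v10.1 assembly, with no change of symbol.

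The ubiquitin-proteasome pathway removes proteins that a cell no longer needs. An activating enzyme (E1) charges ubiquitin, a conjugating enzyme (E2) accepts it, and a ligase (E3), such as a cullin with its F-box protein, picks the substrate and passes ubiquitin on to it. Chains of ubiquitin bring the substrate to the 26S proteasome, where the 19S particle binds, unfolds and strips it of ubiquitin and the barrel-shaped 20S core cuts it into peptides. Deubiquitinases take ubiquitin off again and return it for reuse. The pathway runs in every cell, and secretory cells such as those of the pancreas also use it to clear misfolded proteins from the endoplasmic reticulum.

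The tested samples were 2 pools of dorsal buds, set against 2 pools of ventral buds, all taken before the buds fuse, and each was hybridised to its own 1-colour Affymetrix array. Each pool joined 1000 to 3000 buds and gave 1 to 5 ng of total RNA. Embryos had been raised in 0.1XMMR and the tadpoles were anaesthetised with MS-222; the labels of the groups differ only in the bud taken, and strain, sex and stage are not given in the labels used here. The labels do not tell whether the pools of a bud are from different batches of embryos. The p-values thus reflect the spread of these 4 samples alone, and that spread may be technical. Whole buds were used, so fewer cells of a type and less RNA per cell cannot be told apart.

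The values are linear MAS5 intensities without unit, scaled so that each array has a mean of 100. Marker genes of the endocrine pancreas summed to between 3647 and 4399.7 in the dorsal pools and between 136 and 178 in the ventral pools. Of 8 tested ones, 4 passed an adjusted p of 0.05 in the limma fit described below, beside 0.258% of all tested probe sets. Exocrine markers summed to between 5826 and 14102 in dorsal pools and between 5967 and 10913 in ventral pools, so both groups carried pancreatic markers. Marker lists of other cells had lower sums in the dorsal pools. The liver list summed to between 1488 and 3962 there and between 5252 and 5480 in the ventral pools. The skeletal muscle list summed to between 459 and 631 against 1219 to 1615. The mesenchyme list summed to between 942 and 1217 against 1549 to 2181, and the blood list to between 4658 and 7059 against 8404 to 11166. Of tested probe sets, 3 of 17 for liver passed that test, and 0 of 17 for muscle, 0 of 10 for mesenchyme and 0 of 9 for blood. Not every listed probe set was lower: the highest differences were 0.58 for liver, 0.05 for muscle and 0.04 for blood. Of the listed marker probe sets, 4 of 20 for liver, 3 of 20 for muscle, 4 of 14 for mesenchyme and 10 of 20 for blood lay below the highest of 17 empty tag controls (21.5). The part of these cells in the values given here was not tested. Across tested probe sets, dorsal replicates 1 and 2 were less alike than the ventral replicates, with a correlation of 0.949 against 0.981. Dorsal replicate 1 correlated more with ventral replicates 1 and 2 (0.962 and 0.954) than with dorsal replicate 2.

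No member of the pathway was called between the buds. Differences were fitted with limma over all 9294 probe sets bright enough to test, on the log2(intensity + 6) scale, dorsal minus ventral, with Benjamini-Hochberg adjustment. Of the 121 tested members, 0 passed an adjusted p of 0.05, while 0.258% of all tested probe sets did (24 of 9294). At an unadjusted p under 0.05 there were 3 of the 121 members, against 8.62% of all tested probe sets. They were psmd14.L of the 19S particle and psmd10.L, an assembly chaperone, both higher in dorsal pools, and the F-box gene fbxo11.L, lower there. The median difference of the members was 0.07, beside 0.03 over all tested probe sets, and the values ran from -0.56 to 0.75. It was -0.03 without dorsal replicate 2 and 0.02 after quantile normalization.

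The arrays of the buds overlapped for most members. Both dorsal arrays lay above both ventral arrays for 21 members (17.4%), where 21.9% of all tested probe sets did so, and both lay below for 19 members (15.7%), where 18.1% of all did. For the other 81 the groups overlapped. How well the data bound the differences can be read from the 95% intervals: for 110 of 121 members (90.9%) the interval lay within a 2-fold difference either way, beside 82.2% of all tested probe sets. That count is a property of these 4 arrays, and it was 64 in the fit without ventral replicate 2, 76 without ventral replicate 1, 103 without dorsal replicate 1 and 115 without dorsal replicate 2. A p that misses the threshold does not show that the buds have the same level. No member had an estimate beyond 1 on the log2 scale, and 6 were beyond 0.5.

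**Figure D1:**
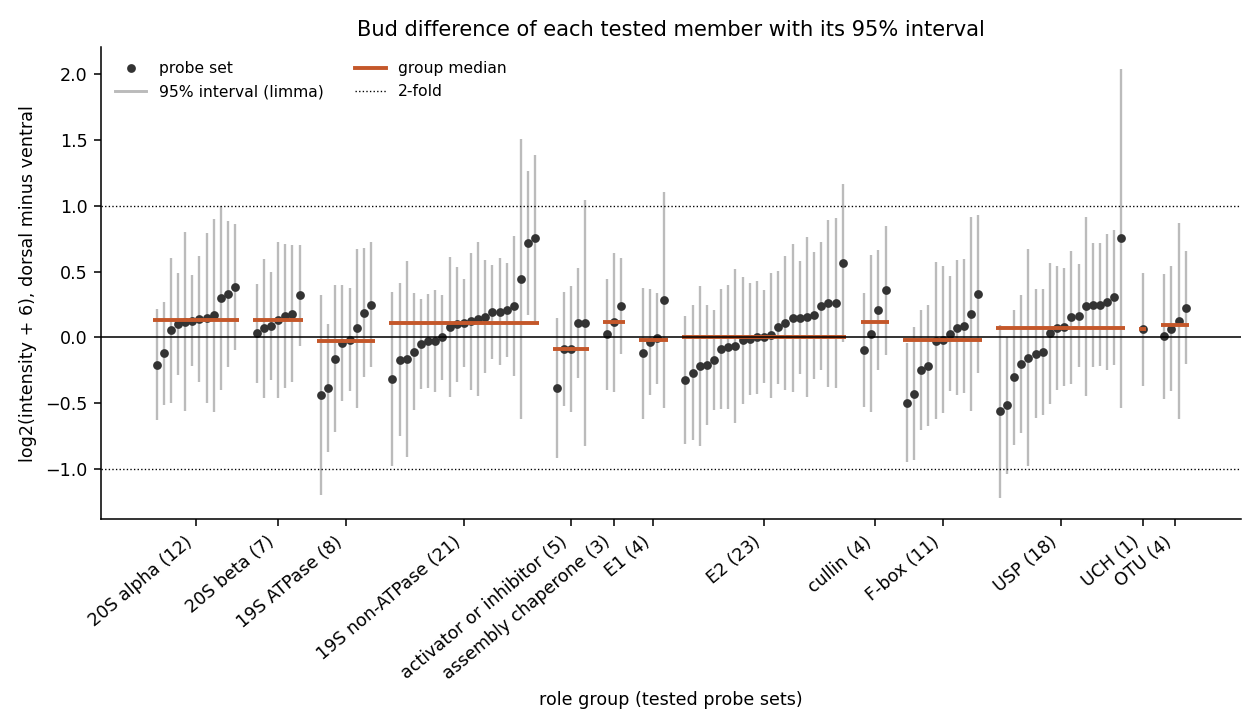
Difference between dorsal and ventral buds of log2(intensity + 6) for the 121 tested members by role, as estimate (point), 95% limma interval (grey line) and group median (orange); dotted lines mark a 2-fold difference. All role medians lie between -0.09 and 0.13, and only psmd10.L, psmd14.L and fbxo11.L have intervals that leave out 0.

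The 20S core is a stack of rings, with alpha subunits forming the gates and beta subunits carrying the cutting sites. The median difference of its 19 tested probe sets was 0.13, and it was -0.12 without dorsal replicate 2. Of the 19 estimates, 17 lay above 0 (89.5%, beside 54.3% of all tested probe sets) and 2 below. None passed the test at an adjusted p of 0.05, and none had an unadjusted p under 0.05 in limma. Of the 19, 3 were higher in both dorsal pools than in both ventral pools (15.8%, beside 21.9% of all tested probe sets). Lower in both were 2 (10.5%, beside 18.1%).

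Among the alpha subunits, psma3.L had intensities of 795 and 1336 in dorsal replicates 1 and 2, against 812 and 824 in ventral replicates 1 and 2. The dorsal pools stood on both sides of the ventral pools, and the difference of 0.33 ± 0.23 (SE) had an adjusted p of 0.753. The copy psma7.S read 302 and 398 in the dorsal pools and 238 and 295 in the ventral pools. It was higher in both dorsal pools and had the largest difference of the core, 0.38, with a 95% interval from -0.09 to 0.86 and an adjusted p of 0.66. Its homeologue psma7.L read 448 and 487 in dorsal pools and 438 and 416 in ventral pools, a difference of 0.13. psma1.S read 456 and 576 in dorsal pools and 471 and 484 in ventral pools, a difference of 0.10. In the opposite direction, psma1.L read 184 and 157 in dorsal pools and 208 and 186 in ventral pools, and psma6.L read 251 and 219 in dorsal pools against 254 and 257 in ventral pools. These were the 2 core probe sets that lay lower in both dorsal pools, with differences of -0.21 and -0.12.

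Chymotrypsin-like activity belongs to psmb5, and psmb5.L read 473 and 582 in dorsal pools and 498 and 529 in ventral pools, a difference of 0.03 with a 95% interval from -0.35 to 0.41. The caspase-like subunit psmb6.L read 474 and 627 in dorsal pools and 506 and 520 in ventral pools, a difference of 0.09. The trypsin-like subunit psmb7.S read 335 and 518 in dorsal pools and 365 and 369 in ventral pools, a difference of 0.18. In all 3, dorsal replicate 1 was the lowest and dorsal replicate 2 the highest array. The structural subunit psmb4.L was the exception among tested beta subunits: it read 545 and 680 in dorsal pools and 467 and 507 in ventral pools, higher in both dorsal pools by 0.32, with an adjusted p of 0.654. Inducible immunoproteasome subunits, which replace standard beta subunits in immune cells, were at the floor: psmb8.L read 2.62 and 1.76 in dorsal pools and 6.66 and 2.56 in ventral pools, and psmb9.S read 1.26 and 0.611 in dorsal pools and 1.86 and 4.23 in ventral pools. Both lay below the highest tag control on every array and were not tested.

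What the core subunits shared was a high value in dorsal replicate 2. That array held the highest of the 4 values for 16 of 19 core probe sets (84.2%), beside 33.8% of all tested probe sets, and the exceptions were psma1.L, psma4.L and psma6.L. For 8 of 19 (42.1%) it was at least 1.3 times each of the other 3 arrays, beside 9.64% of all. The median difference of dorsal replicate 2 minus replicate 1 was 0.52 for the core and 0.02 for all tested probe sets, while ventral replicate 2 minus replicate 1 gave 0.02 for the core. An example is psma2.L, with 298 and 571 in dorsal pools and 305 and 365 in ventral pools. Another is psma5.S, whose _a_at probe set read 221 and 423 in dorsal pools and 285 and 278 in ventral pools. The 1114 tested probe sets with a mean log2 of at least 8 had a median of -0.02. The shift of the core was 0.54 after quantile normalization, 0.48 after median centring and 0.50 with a pseudocount of 24, with 17 of 19 above 0 in each. This pattern was seen in the data first and concerns replicates of 1 group, so it has no test.

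Among control probe sets, dorsal replicate 2 had the highest 5′ to 3′ ratios and the lowest spike-in sum. The beta-actin control gave a ratio of the 5′ to the 3′ probe set of 4.61 and 10.6 in dorsal replicates 1 and 2, against 6.54 and 6.94 in the ventral replicates. For Gapdh the same ratio was 0.103 and 0.181 in the dorsal replicates and 0.133 and 0.132 in the ventral replicates. The ratios of beta-actin lay far above those of Gapdh on the same arrays. Whether RNA quality differed between the arrays was not tested. The spike-in probe sets for Dap, Lys, Phe and Thr summed to 5595 and 2899 in the dorsal replicates. In the ventral replicates they summed to 4408 and 7222, with ventral replicate 2 the highest array. Cell type markers differed between the dorsal replicates too. In dorsal replicates 1 and 2, the liver list summed to 1488 and 3962, the exocrine list to 14102 and 5826, the skeletal muscle list to 631 and 459 and the blood list to 7059 and 4658. The median of dorsal replicate 2 minus replicate 1 was 1.34 over 17 tested liver probe sets, -1.19 over 12 exocrine ones, -0.92 over 17 muscle ones and -0.45 over 9 blood ones. Ventral replicate 2 minus replicate 1 gave -0.22, -0.95, 0.39 and 0.44 for the same lists. The part of all these in the core's shift was not tested. The core's median difference between the buds was -0.12 without dorsal replicate 2 and 0.44 without dorsal replicate 1. Each of these fits leaves 1 dorsal array, so no spread between dorsal pools enters it and its p-values are not given here.

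**Figure D2:**
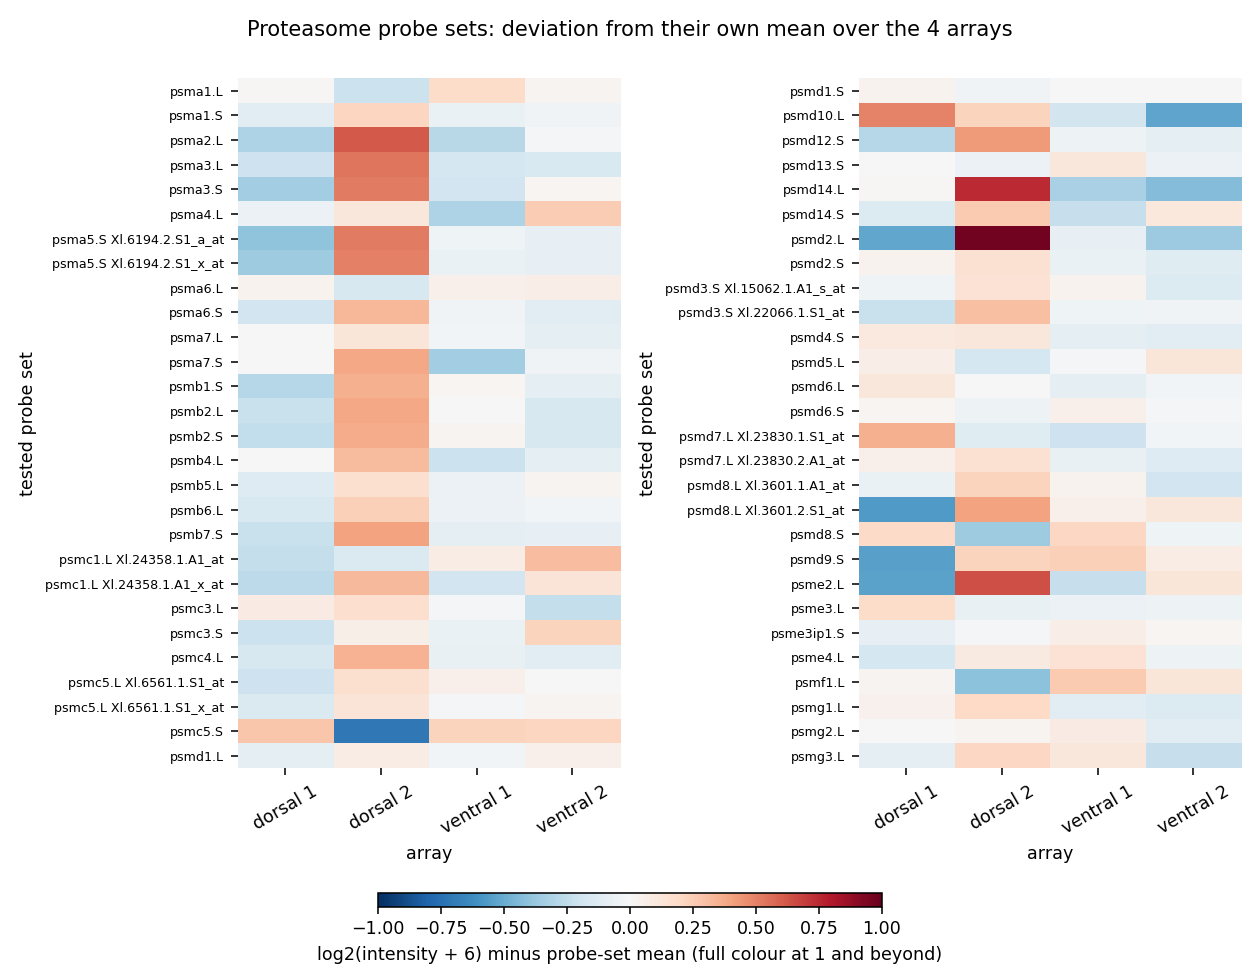
Each tested proteasome probe set on the 4 arrays as its log2(intensity + 6) minus its own mean (red above, blue below). The dorsal 2 column is red for most psma and psmb rows, while psmd14.L and psmd10.L differ between the dorsal and ventral columns.

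The 19S particle has a ring of ATPases that unfold substrates (psmc) and a set of scaffolds, ubiquitin receptors and lid subunits (psmd). The psmd symbols also cover the assembly chaperones psmd5.L, psmd9.S and psmd10.L, which are counted in the psmd group here. The 8 probe sets of the ATPases had a median difference of -0.03. Of these, 3 lay above 0 (37.5%, beside 54.3% of all tested probe sets) and 5 below. The 21 of the psmd group had a median of 0.11, with 14 above 0 (66.7%, beside the same 54.3%) and 7 below. In the 21, both dorsal pools were above both ventral pools for 6 (28.6%, beside 21.9% of all tested probe sets) and below for 0 (beside 18.1%). Without dorsal replicate 2 the medians were -0.19 for the ATPases and 0.01 for the others, and without dorsal replicate 1 they were 0.13 and 0.21. None of the 29 passed the adjusted threshold.

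The 19S member with the largest difference was psmd14.L, a copy of the metalloprotease that removes the ubiquitin chain from a substrate as it enters the proteasome. It read 109 and 186 in dorsal pools and 85.7 and 79.0 in ventral pools. Both dorsal pools were above both ventral pools, with dorsal replicate 2 the highest, and the difference was 0.75 ± 0.27 (SE), with a 95% interval from 0.13 to 1.38 and an adjusted p of 0.486. Its homeologue psmd14.S read 124 and 164 in dorsal pools and 115 and 147 in ventral pools. The groups overlapped there, and the difference was 0.12 with a 95% interval from -0.40 to 0.64. In the fit without dorsal replicate 1, psmd14.L had a difference of 1.12, which rests on dorsal replicate 2 alone.

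Also in the psmd group was psmd10.L, which encodes gankyrin, a chaperone that helps to assemble the ATPase ring and leaves before the proteasome is finished. It read 52.1 and 42.1 in dorsal pools and 30.3 and 22.5 in ventral pools. Here the dorsal pools stood together above the ventral pools, with a difference of 0.71 ± 0.23 (SE), a 95% interval from 0.17 to 1.26 and an adjusted p of 0.429. The chaperones with the same task had estimates below 0. psmd9.S read 44.6 and 80.2 in dorsal pools and 81.0 and 71.8 in ventral pools, a difference of -0.32, and psmd5.L read 132 and 110.2 in dorsal pools and 124 and 137 in ventral pools, a difference of -0.11. In both the groups overlapped.

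The scaffold psmd1.S read 578 and 549 in dorsal pools and 565 and 562 in ventral pools, and its 95% interval ran from -0.32 to 0.32. The lid subunit psmd13.S read 544 and 521 in dorsal pools and 586 and 519 in ventral pools, a difference of -0.05 with an interval from -0.39 to 0.29. The ubiquitin receptor psmd4.S read 333 and 336 in dorsal pools and 289 and 288 in ventral pools. It was higher in both dorsal pools, and the difference was 0.21 with an adjusted p of 0.753. The scaffold psmd2, the main docking place for shuttle proteins, is measured in both copies: psmd2.L read 21.1 and 69.5 in dorsal pools and 30.7 and 24.1 in ventral pools, where dorsal replicate 2 stood alone, and psmd2.S read 381 and 413 in dorsal pools and 353 and 340 in ventral pools. Their differences were 0.45 with an interval from -0.62 to 1.51 and 0.19 with an interval from -0.16 to 0.55. Without dorsal replicate 1, psmd2.L had a difference of 1.19.

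Among the ATPases, psmc5.S read 97.7 and 46.2 in dorsal pools and 93.8 and 93.4 in ventral pools, so that dorsal replicate 2 alone was low. The difference was -0.44 with an adjusted p of 0.753. Without dorsal replicate 1 it had a difference of -0.93. The probe sets of psmc5.L gave -0.04 and -0.02. For psmc1.L the probe sets disagreed. The _at set read 36.1 and 38.7 in dorsal pools and 46.2 and 55.4 in ventral pools, a difference of -0.38. The _x_at set read 62.6 and 97.0 in dorsal pools and 65.7 and 83.5 in ventral pools, a difference of 0.07. The suffix _x_at marks a set whose probes may bind other transcripts. The ATPase psmc4.L read 214 and 305 in dorsal pools and 227 and 219.8 in ventral pools, a difference of 0.19.

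Caps other than the 19S particle, and the inhibitor, had 5 tested probe sets with a median of -0.09, and none passed. psme3.L encodes the nuclear activator that opens the core without ubiquitin. It read 228 and 189.8 in dorsal pools and 192.5 and 192.6 in ventral pools. psme1.S and psme2.L encode the subunits of the interferon-inducible activator. The first was below the tag controls everywhere, at 8.498 and 10.6 in dorsal pools and 10.8 and 7.22 in ventral pools, and the other read 10.6 and 31.8 in dorsal pools and 14.5 and 20.3 in ventral pools, a difference of 0.11 with a wide interval from -0.83 to 1.04. The inhibitor psmf1.L read 59.8 and 42.6 in dorsal pools and 71.5 and 64.2 in ventral pools. It was lower in both dorsal pools, with a difference of -0.38, an interval from -0.91 to 0.15 and an adjusted p of 0.695. psme3ip1.S, taken in by its symbol, encodes a partner of Psme3 and not a proteasome subunit, and its difference was -0.09. The chaperones that build the alpha ring had differences of 0.24 (psmg1.L, at 343 and 383 in dorsal pools and 309 and 303 in ventral pools), 0.02 (psmg2.L) and 0.11 (psmg3.L).

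The shift of dorsal replicate 2 differed between role groups, as a description with no test. The median of dorsal replicate 2 minus replicate 1 was 0.46 for alpha subunits, 0.61 for beta subunits and 0.27 for ATPases. It was 0.12 for the psmd group, 0.07 for activators and the inhibitor and 0.16 for the psmg assembly chaperones. For the 65 tested ubiquitin enzymes it was -0.04, with 30 above 0. Among these, it was 0.15 for the E1 probe sets, -0.14 for E2, -0.16 for cullins, 0.03 for F-box, 0.05 for USP and -0.07 for OTU members. Proteasome probe sets had their highest value on dorsal replicate 2 in 36 of 56 cases (64.3%) and ubiquitin enzymes in 16 of 65 (24.6%), beside 33.8% of all tested probe sets. The intensities of the 22 core probe sets summed to 6136 and 8670 in dorsal replicates 1 and 2 and to 6418 and 6565 in ventral replicates 1 and 2. Those of the 81 ubiquitin enzyme probe sets summed to 6907 and 6831 in the dorsal replicates and to 6752 and 6699 in the ventral replicates. These sums are dominated by bright probe sets and are given as a description.

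**Figure D3:**
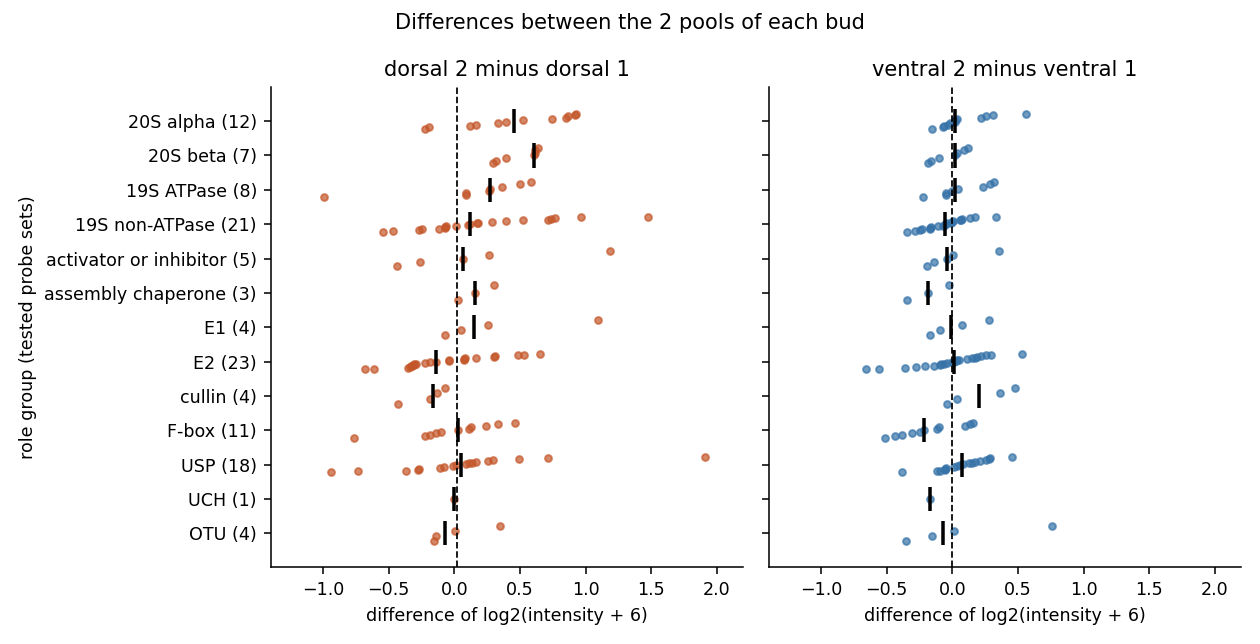
Difference between the replicate arrays of each bud, in log2(intensity + 6), for each tested member by role; black bars are role medians and the dashed line is the median of all tested probe sets. In dorsal buds the 20S alpha and beta medians lie at 0.46 and 0.61, while all ventral role medians lie between -0.21 and 0.20.

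Ubiquitin activation begins with uba1, which charges most of the ubiquitin in a cell. The copy uba1.S read 539 and 513 in dorsal pools and 560.3 and 496 in ventral pools. The pools interleaved, and the difference was 0.00 with a 95% interval from -0.35 to 0.34. The other copy, uba1.L, read 56.9 and 128 in dorsal pools and 72.0 and 67.0 in ventral pools, with dorsal replicate 2 alone high. Its difference was 0.29, with an interval from -0.53 to 1.10. Without dorsal replicate 1 it had a difference of 0.83. E1 subunits for ubiquitin-like proteins had these estimates: uba2.L, for SUMO, at -0.04, and uba3.S, for NEDD8, at -0.12.

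The E2 enzymes had a median difference of 0.01 over 23 tested probe sets. Of these, 12 lay above 0 (52.2%, beside 54.3% of all tested probe sets) and 11 below. Over all tested probe sets, 21.9% had both dorsal arrays above both ventral arrays and 18.1% had both below. Of the E2 probe sets, 4 lay below (17.4%) and 1 lay above (4.35%). The 1 was ube2s.S, the E2 that lengthens ubiquitin chains for the anaphase-promoting complex, the ligase that ends mitosis. It read 177 and 109 in dorsal pools and 95.4 and 88.7 in ventral pools. Dorsal replicate 1 stood highest, and the difference was 0.56 ± 0.25 (SE), with an interval from -0.03 to 1.16 and an adjusted p of 0.608. Without dorsal replicate 2 it was 0.90, which rests on dorsal replicate 1 alone.

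The E2 that starts those chains, ube2c, was measured in both copies. ube2c.L read 165 and 174 in dorsal pools and 139 and 167 in ventral pools, and ube2c.S read 166 and 151 in dorsal pools and 162 and 139 in ventral pools, with differences of 0.15 and 0.08. In both copies the groups overlapped. The APC inhibitor fbxo5.S read 31.4 and 16.0 in dorsal pools and 23.0 and 16.2 in ventral pools. The cell cycle marker list, beside which these genes belong, had a median difference of 0.19 over 30 tested probe sets, with 17 higher in both dorsal pools (56.7%, beside 21.9% of all), 1 lower (3.33%, beside 18.1%) and 0 past the adjusted threshold, with 2 at an unadjusted p under 0.05. Its sums were 5077 and 5419 in dorsal replicates 1 and 2 and 4469 and 4834 in ventral replicates 1 and 2. From dorsal replicate 1 to replicate 2 the sum of the list rose, while ube2s.S fell from 177 to 109. The part of these sums in the values of ube2s.S was not tested.

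ube2l3.S, which serves HECT ligases and Parkin, read 517 and 417 in dorsal pools and 522 and 527 in ventral pools, a difference of -0.17 with an interval from -0.55 to 0.21. ube2n.S makes chains used in signalling rather than degradation. Its _s_at probe set read 420 and 472 in dorsal pools and 449 and 437 in ventral pools, a difference of 0.01. The lowest estimate among the E2 enzymes was that of ube2h.L, the partner of the CTLH ligase, at 48.6 and 61.3 in dorsal pools and 73.5 and 66.3 in ventral pools. It lay lower in both dorsal pools, with a difference of -0.32 and an adjusted p of 0.726.

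Cullins are the scaffolds of the largest family of E3 ligases. cul4b.S read 92.0 and 87.2 in dorsal pools and 59.7 and 78.7 in ventral pools, and cul1.L, the scaffold for F-box proteins, read 75.002 and 65.1 in dorsal pools and 58.8 and 60.4 in ventral pools. Both were higher in both dorsal pools, by 0.36 and 0.21, with adjusted p of 0.694 and 0.802. The homeologue cul1.S read 82.5 and 59.6 in dorsal pools and 57.4 and 82.2 in ventral pools, a difference of 0.03. cul3.S, the scaffold for BTB proteins, read 90.0 and 81.5 in dorsal pools and 93.4 and 90.6 in ventral pools, a difference of -0.10.

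F-box proteins are the substrate receptors of the cul1 ligase, and 7 of their 18 probe sets were too dim to test. Among the 11 tested, the median was -0.02. In both dorsal pools 1 was higher (9.09%, beside 21.9% of all tested probe sets) and 4 were lower (36.4%, beside 18.1%). fbxo11.L, whose human counterpart marks the transcription factor BCL6 for degradation, read 59.4 and 65.5 in dorsal pools and 85.4 and 95.9 in ventral pools. The pools of each bud were close and well apart from those of the other, with a difference of -0.50 ± 0.19 (SE), an interval from -0.95 to -0.05 and an adjusted p of 0.534. Leaving out 1 array at a time gave values between -0.58 and -0.42. As the pools do not overlap, such fits cannot change the sign. fbxw5.S read 45.0 and 38.8 in dorsal pools and 65.5 and 51.8 in ventral pools, lower in both dorsal pools, at -0.43 with an adjusted p of 0.654. fbxo9.L read 114 and 116 in dorsal pools and 122 and 104 in ventral pools, a difference of 0.03.

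Deubiquitinases of the USP family had the widest range of estimates. The 18 tested USP probe sets had a median of 0.08 and ran from -0.56 to 0.75. In both dorsal pools 5 were higher (27.8%, beside 21.9% of all tested probe sets) and 5 lower (27.8%, beside 18.1%). usp5 disassembles free ubiquitin chains, and its probe sets disagreed more than those of any other member gene with several. The set of usp5.S named S1_at read 36.8 and 155 in dorsal pools and 42.0 and 44.7 in ventral pools, with dorsal replicate 2 alone high, and the set named A1_at read 230.2 and 326 in dorsal pools and 307 and 286 in ventral pools, where the pools overlapped. The differences were 0.75 with an interval from -0.54 to 2.04 and -0.11 with an interval from -0.59 to 0.37, a gap of 0.86. The value of the S1_at set without dorsal replicate 1 was 1.71, which rests on dorsal replicate 2 alone. usp5.L read 25.5 and 20.2 in dorsal pools and 27.8 and 26.4 in ventral pools, a difference of -0.20. Of the 12 genes with several tested probe sets, the next widest gaps were 0.48 for ube2r2 and 0.45 for psmc1.L.

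On the other side stood usp8 and usp20. usp8.L acts on endosomes, and its A1_at set read 42.2 and 23.0 in dorsal pools and 48.1 and 50.4 in ventral pools, a difference of -0.56 with an interval from -1.22 to 0.09. Its S1_at set read 21.4 and 26.6 in dorsal pools and 31.6 and 30.1 in ventral pools, a difference of -0.30. Both were lower in both dorsal pools, with adjusted p of 0.653 and 0.753. Without dorsal replicate 1 the A1_at set had a difference of -0.93. usp20.L read 35.3 and 28.0 in dorsal pools and 43.1 and 52.7 in ventral pools, lower in both dorsal pools, at -0.52 with an adjusted p of 0.584.

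usp7.S, which acts on Mdm2 and p53 in mammals, read 233 and 220.1 in dorsal pools and 193 and 211 in ventral pools, a difference of 0.16. usp14.S, which sits on the proteasome and trims chains there, read 174 and 216 in dorsal pools and 147 and 179 in ventral pools, a difference of 0.25. uchl3.L read 112 in both dorsal pools and 114 and 100.5 in ventral pools, a difference of 0.06. The OTU members otub1.L and otud6b.L had differences of 0.01 and 0.23. otud6b.L read 119.8 and 120.1 in dorsal pools and 107 and 96.1 in ventral pools. It was the single OTU member of 4 tested that was higher in both dorsal pools (25%, beside 21.9% of all tested probe sets).

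**Figure D4:**
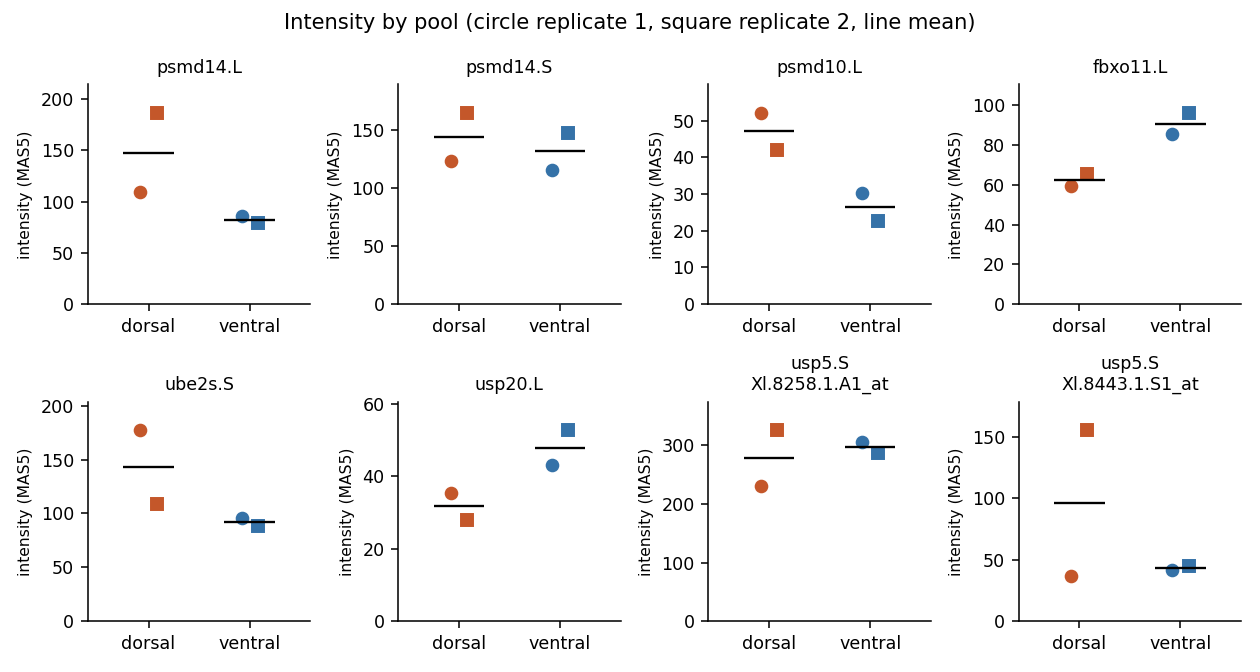
MAS5 intensity in each dorsal (orange) and ventral (blue) pool for selected members, with replicate 1 as a circle, replicate 2 as a square and the mean as a line. The pools of psmd14.L, psmd10.L, fbxo11.L, ube2s.S and usp20.L do not overlap between the buds, while the usp5.S panels differ in which array stands apart.

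*Xenopus laevis* keeps many genes as a pair of homeologues, marked .L and .S for the long and short chromosomes, and 18 pairs of members had both copies tested. Whether the bud difference of 1 copy differed from that of the other was tested with limma on the .L minus .S log ratio of each array, over 660 pairs on the array. By this limma test 0 pairs passed an adjusted p of 0.05 (0%), and 6.06% of all pairs but 0 of the 18 member pairs had an unadjusted p under 0.05. The widest was psmd14, where the .L difference exceeded that of .S by 0.63 ± 0.27 (SE), with an adjusted p of 0.806. Next were psmc5 with 0.42 and psmc3 with 0.41. In 11 of the 18 pairs both copies differed in the same direction, a description given without the share over all pairs. The median size of the gap was 0.25 for member pairs and 0.21 for all pairs. Probes of 1 copy may also bind the other, which would draw the copies together.

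**Figure D5:**
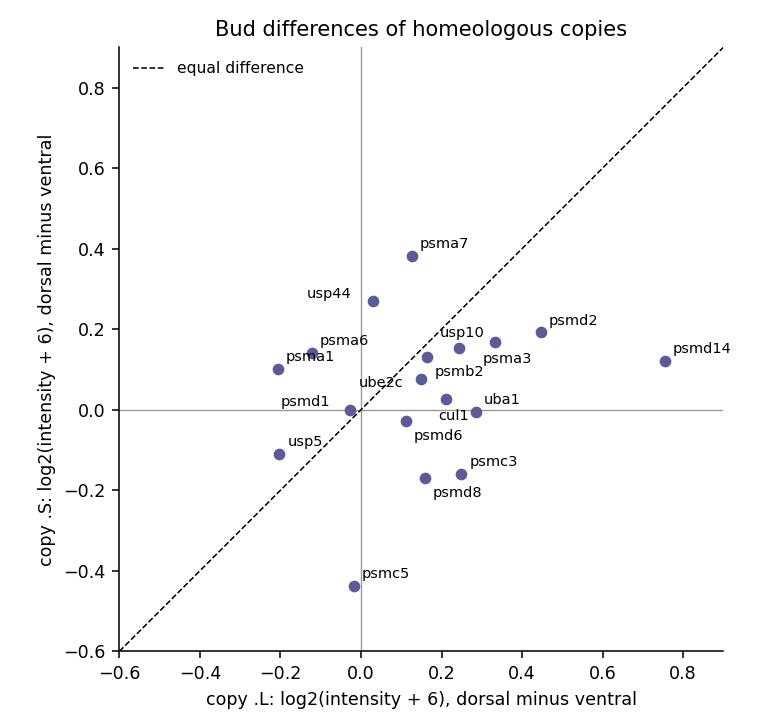
Dorsal minus ventral difference of log2(intensity + 6) for the .L copy (horizontal) and the .S copy (vertical) of the 18 member pairs; the dashed line marks equal differences. psmd14 lies farthest from the line, at 0.75 for .L and 0.12 for .S, and no pair passed the test.

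Lists of other pathway genes held 232 probe sets, of which 169 were tested, and 0 passed the adjusted threshold in either direction by limma. At an unadjusted p under 0.05 there were 4, of which 1 was higher and 3 were lower in dorsal pools (2.37%, beside 8.62% of all tested probe sets), and the median difference was 0.06. Per list, the median was -0.01 for ubiquitin-like proteins (16 tested), -0.07 for cullin partners (13), 0.07 for the COP9 signalosome (13), 0.06 for HECT, RING and U-box ligases (73), 0.01 for other deubiquitinases (7), 0.12 for shuttles, the Vcp complex and receptors (31) and 0.11 for the anaphase-promoting complex (13). The list for ubiquitin precursors found fau.L alone, at -0.04. It encodes a ubiquitin-like protein fused to a ribosomal protein and so is no precursor of ubiquitin itself. All lists were made by symbol alone, so the ligase list also caught birc5l.L, birc5l.S and cbln4.L by the start of their names. The ubiquitin-like list also includes enzymes that act on such proteins, senp3.L and pias1.L among them.

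The 4 were cops7b.S, rnf8.S, klhl24.S and nrf1.S. cops7b.S, of the complex that takes NEDD8 off cullins, read 87.7 and 69.4 in dorsal pools and 54.3 and 53.5 in ventral pools. It was higher in both dorsal pools by 0.49 (adjusted p 0.566). Its homeologue cops7b.L had a difference of -0.05 with overlapping pools. rnf8.S, a ligase of the DNA damage response, read 74.0 and 92.5 in dorsal pools and 128 and 129 in ventral pools, lower in both dorsal pools, at -0.60 (adjusted p 0.433). klhl24.S, an adaptor for cul3, had a difference of -0.71 by one probe set (adjusted p 0.551) and of -0.07 by the other. The first of these probe sets read 53.1 and 89.4 in dorsal pools and 137 and 99.0 in ventral pools.

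The other genes named in each list did not pass an unadjusted p of 0.05. Of the proteins that handle SUMO, the protease senp3.L read 18.2 and 42.4 in dorsal pools and 20.3 and 14.5 in ventral pools, a difference of 0.56 with overlapping pools, and the ligase pias1.L read 45.3 and 36.0 in dorsal pools and 30.4 and 28.4 in ventral pools, a difference of 0.39. skp2.L, the F-box protein that targets the inhibitor p27 in mammals, read 31.9 and 32.5 in dorsal pools and 24.2 and 22.4 in ventral pools, a difference of 0.38. trim8.L differed by 0.57 and -0.22 between its probe sets. stambp.S, an endosomal deubiquitinase, read 12.1 and 15.1 in dorsal pools and 25.4 and 20.1 in ventral pools, a difference of -0.55. All but ventral replicate 1 lay below the highest tag control (21.5), so this difference is near background. Its other probe set read 5.95 and 4.79 in dorsal pools and 7.37 and 3.55 in ventral pools and was not tested. For senp3.L, all arrays but dorsal replicate 2 lay below that control. nsfl1c.L, a cofactor of Vcp, had differences of 0.43 and 0.18 by its probe sets, and anapc15.S, of the anaphase-promoting complex, read 64.9 and 56.3 in dorsal pools and 50.6 and 33.5 in ventral pools, a difference of 0.49. The remaining ones were cops8.S at 0.33, mysm1.L at -0.27 and anapc16.L at 0.27. The homeologue cops8.L went the other way and was lower in both dorsal pools, at -0.21.

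The list of transcription factors held 3 probe sets, with a median of -0.61, which is the value of nfe2l2.L. nfe2l1.S, the factor known in mammals to drive proteasome genes under stress, read 16.7 and 25.9 in dorsal pools and 25.02 and 21.98 in ventral pools, a difference of -0.13 with overlapping pools. nrf1.S, nuclear respiratory factor, is another factor despite its like name, and read 24.5 and 15.1 in dorsal pools and 29.4 and 42.8 in ventral pools, a difference of -0.71 (adjusted p 0.543). nfe2l2.L, the regulator of the response to oxidative stress, read 37.1 and 19.8 in dorsal pools and 47.9 and 42.2 in ventral pools, a difference of -0.61 (adjusted p 0.631). nrf1.S and nfe2l2.L were lower in both dorsal pools and lowest in dorsal replicate 2, where both lay below the highest tag control (21.5). The autophagy receptor sqstm1.L, known in mammals as a target of that regulator, read 31.1 and 57.3 in dorsal pools and 64.1 and 64.3 in ventral pools. It was lower in both dorsal pools, at -0.53 (adjusted p 0.66). From dorsal replicate 1 to replicate 2, nfe2l2.L fell and sqstm1.L rose. A link between these genes was not tested.

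Among tested members, usp44.L and otub2.S also lay below the highest tag control on all 4 arrays, so their differences are of values near background. usp44.L is 1 copy of a homeologue pair counted above. For 4 tested members, these 2 and psme2.L among them, both group means lay below that control. The 20 members not tested all lay below the highest tag control on all 4 arrays, so no difference could be read for them. They included 7 F-box, 4 USP and 3 E2 probe sets and the immunoproteasome subunits. For psma5.S, ube2j2.L, usp25.L and usp3.L another probe set was tested.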

How the data were processed

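The files hold 1 table of linear array intensities, 1 column per array, which the authors had deposited after MAS5, a step named without version in the submitters' processing notes; background settings, scaling target and detection calls are not given in the sources used here. RNA was labelled from oligo(dT)-primed cDNA, per the labels' protocols, which favours 3′ ends. Scaling to a common mean hides any change in total RNA, and low MAS5 intensities are noisy. Gene symbols came from the platform annotation, which gave 9304 of 15491 probe sets exactly 1 symbol; 120 control probe sets were left out. No genome build of the array is given in the sources used here, and positions and sequences are not printed.

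A pseudocount of 6 was added before log2, and the 9294 probe sets with a mean log2 above its 40th percentile entered a fit in limma (version 3.58.1, under R 4.3.3; lmFit, then eBayes with intensity trend) of all 4 arrays without covariates, and Benjamini-Hochberg adjustment over all of them at 0.05. Intervals are limma's 95% intervals, and the number of arrays limits their precision. Both fits were tested on simulated data with the same spread in both buds. In the real data the median size of the replicate difference was 0.28 for dorsal and 0.17 for ventral pools. The simulated data do not cover that inequality. Homeologues were paired by symbol, with the brightest tested probe set of each copy. The replicate numbers were not used to pair samples: over tested probe sets, the correlation of dorsal replicate 1 minus 2 with ventral replicate 1 minus 2 was 0.05 (0.14 over tested members), and only 2 numbers are shared. Alternatives were pseudocounts of 1 and 24, no filter or a filter at the 60th percentile, quantile normalization, median centring, no trend, the replicate block, the brightest probe set per gene, and leaving out each array.

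Members, role groups, marker lists and pathway lists were chosen with earlier results of these data known. Named members were those with an unadjusted p under 0.05 with their homeologues and other probe sets, the 2 brightest and the 2 with the largest difference of each role group, and genes picked whatever their value (among them psmb8, psmb9, psme1 to psme3, uba1 and ube2c); in pathway lists, the 2 with the largest difference. Other members named, among them psma2.L, psma5.S, psmb5.L, psmd2, psmd4.S, psmd9.S, fbxo5.S, usp14.S and usp20.L, were chosen after their values were seen.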

Additional observations from a re-analysis of the deposited data

How the results depend on the processing

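Under the 8 other settings with all 4 arrays, and with the brightest probe set per gene, 0 members passed the threshold, the replicate block among them (0 members, 4 at an unadjusted p under 0.05). Of 947 member values under these settings, 14 changed sign, in 13 members that never passed. The filter settings, the fit without trend and the replicate block leave each difference as it was. Signs could thus change only under the pseudocounts, quantile normalization and median centring. Leaving out 1 array gave between 0 and 11 members past the threshold and between 4 and 902 of all tested probe sets, where the lone array left in a bud was assumed to vary like the other bud's pools. Without dorsal replicate 1 these were 11 members, 9 higher and 2 lower in dorsal (9.09% of members, 9.71% of all), and without dorsal replicate 2 they were 1 member and 348 of all. The count over all tested probe sets was 24, against 13 with the filter at the 60th percentile (6196 tested) and 67 with the replicate block, with only 2 numbers shared, too few for the check to show pairing. The median log2 difference of the members was 0.023 after quantile normalization and between -0.028 and 0.091 without 1 array. The count of members with an interval within 2-fold, an alternative chosen after seeing the data, ran from 64 to 115 without 1 array. Homeologue pairs past the threshold numbered 1 with a pseudocount of 24, 1 with no filter, 11 with the replicate block and between 1 and 62 without 1 array; the causes were not tested.

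With 2 arrays a bud, a difference whose interval holds 0 cannot be told from 0. Members below the tag controls on every array, 2 of them tested, are near background, and no detection calls were used here.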
